A study of Homo sapiens with 15 samples.

Results

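Cohesin is the ring-shaped protein complex that holds sister chromatids together from S phase to anaphase and extrudes chromatin loops in interphase. SMC1A and SMC3 form the arms of the ring, RAD21 closes it, and STAG1 or STAG2 binds RAD21. NIPBL loads the ring onto DNA, PDS5A and PDS5B bind it and control its release, and ESCO1 and ESCO2 acetylate 2 lysines of SMC3 to stabilise it, a mark that HDAC8 (also called KDAC8) removes. The RNA of these 10 genes was examined in HT1080 cells, a human fibrosarcoma line, and the members were taken by gene symbol from the 60675 genes of the deposited table. All 10 were found and passed the filter on low counts, with 82 to 4860 counts in a library.

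The 15 RNA-seq libraries formed 5 groups of 3 biological replicates, and every library came from inhibitor-treated cells. WT_PCI was wild-type HT1080 kept for 14 days in 5.0 µM PCI-34051, an inhibitor developed against HDAC8. WT_Tuba was wild-type HT1080 kept for 14 days in 1.0 µM Tubastatin A, an inhibitor developed against HDAC6. 8CDm_PCI was a line whose endogenous HDAC8 carries H143A, treated for 2 days with 5.0 µM PCI-34051. 6CD1m_Tuba (HDAC6 H216A) and 6CD2m_Tuba (HDAC6 H611A) were treated for 2 days with 1.0 µM Tubastatin A. The study asked what an inhibitor does beyond blocking its intended enzyme. For this it compared its conditions with untreated wild-type cells and then compared the lists of changed genes. Here the treated groups are instead compared directly with each other. Between a mutant group and its wild-type group the genotype and the length of treatment changed together, so their effects cannot be told apart. Each mutation was represented by 1 edited line, and untreated cells were not analysed here.

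Libraries held 10932454 to 19983710 estimated counts. Values are given as CPM (counts divided by library size, scaled by the TMM method), and fold changes come from a single edgeR quasi-likelihood model over the 15 libraries. A gene was called when its Benjamini-Hochberg adjusted p was below 0.001, the threshold of the study. The labelled cell type was checked against its markers: the 6 mesenchymal markers summed to 4325 to 7897 CPM. VIM contributed most, with group means of 2931 to 4611 CPM. S100A4 was near the floor, with group means of 0.305 to 0.639 CPM, below the endothelial marker CDH5 in 8CDm_PCI (mean 2.53 CPM). Epithelial markers summed to at most 2.43 CPM, with CDH1, EPCAM and KRT5 at no more than 3 counts in any library. Haematopoietic markers summed to at most 0.589 CPM, with CD3E and PTPRC at no more than 3 counts in any library, and endothelial markers to 0.258 to 3.49 CPM. HDAC8 was level, with group means of 15.5 to 18.0 CPM (n = 3 each) and an adjusted p of 0.681 for any difference among the 5 groups. HDAC6 averaged 13.1 ± 0.992 CPM (SD, n = 3) in 6CD1m_Tuba against 25.7 ± 2.37 in WT_Tuba, a log2 difference of -0.97 (SE 0.12, adjusted p 0.000241). HDAC6 averaged 24.4 ± 1.27 CPM in 6CD2m_Tuba, 19.3 ± 2.40 in 8CDm_PCI and 30.6 ± 3.46 in WT_PCI. The mutations are missense changes, so these counts do not check the genotype labels.

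Before any comparison, 3 libraries stood apart from the other 12. In 6CD1m_Tuba replicate 1 and WT_PCI replicates 2 and 3, AT-rich genes were low relative to GC-rich genes. The median of the AT-rich protein-coding genes (at most 42.1% GC) minus that of the GC-rich ones (at least 56.6% GC) was -0.80 to -0.60 log2 units in these libraries, relative to the mean of all 15, and -0.22 to 0.41 in the rest. Cohesin genes are AT-rich: their exons held 36.5% to 47.2% GC, against a median of 49.0% for protein-coding genes, and 9 of the 10 lay in the AT-rich class, with SMC1A the exception. The median of the 10 genes was -0.48 to -0.45 log2 units in the 3 libraries and -0.06 to 0.35 in the other 12. Therefore each fold change below is also given, where it matters, from a fit with GC offsets, which removes from each library the smooth dependence of its counts on GC content. The part of base composition in the results was not tested further.

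**Figure D1:**
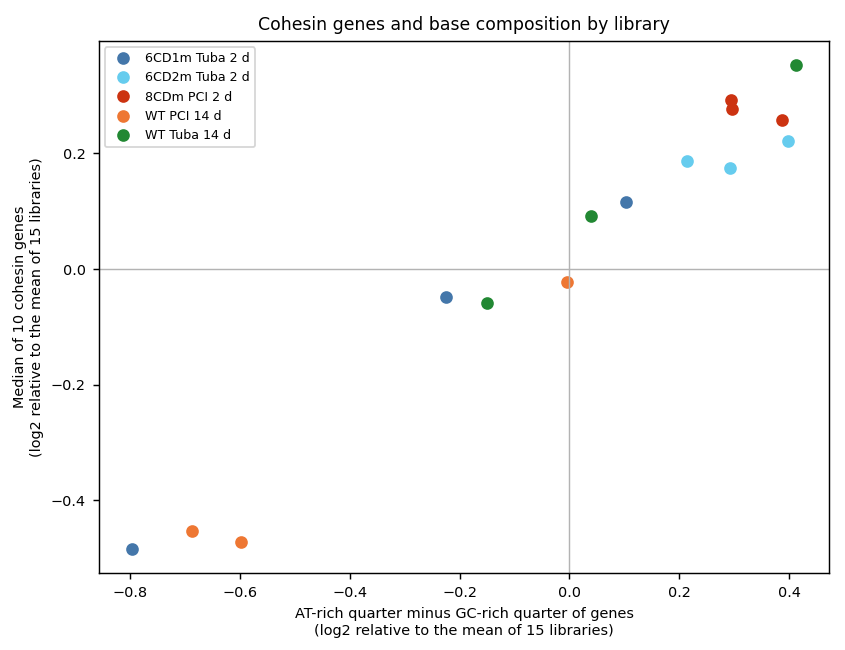
Each point is 1 of the 15 libraries. The horizontal axis gives the median level of AT-rich genes minus that of GC-rich genes (log2 units relative to the mean library), and the vertical axis gives the median of the 10 cohesin genes on the same kind of scale. The 3 libraries at the lower left, from 6CD1m_Tuba and WT_PCI, lie between -0.80 and -0.60 horizontally, apart from the other 12.

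Per kilobase of exon, RAD21 had the highest level of the 10 genes in all 5 groups, with means of 22.3 to 37.5 CPM per kb. ESCO2 had the lowest, with means of 0.924 to 1.78 CPM per kb. SMC3, SMC1A, PDS5A and STAG2 followed RAD21 in every group. In WT_Tuba these 4 averaged 18.1 ± 2.71, 17.1 ± 0.773, 17.0 ± 2.81 and 14.8 ± 3.73 CPM per kb (SD, n = 3), and their libraries overlapped, so no order among them is given there. STAG1 and NIPBL came next, at 7.93 to 11.5 and 8.12 to 12.4 CPM per kb. PDS5B and ESCO1 were lower, at 2.97 to 4.36 and 2.54 to 4.48 CPM per kb. In 8CDm_PCI the order was RAD21 (34.9 ± 2.15), SMC3 (21.1 ± 0.585), STAG2 (20.0 ± 0.192), PDS5A (17.7 ± 0.675), SMC1A (13.4 ± 0.595), NIPBL (12.4 ± 0.529), STAG1 (11.5 ± 0.246), ESCO1 (4.48 ± 0.338), PDS5B (4.33 ± 0.157) and ESCO2 (0.924 ± 0.0725). Of the neighbours in that order, SMC1A and NIPBL, and ESCO1 and PDS5B, overlapped between libraries. The ring genes were thus several times more abundant per kilobase than the acetyltransferase genes in each group.

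**Figure D2:**
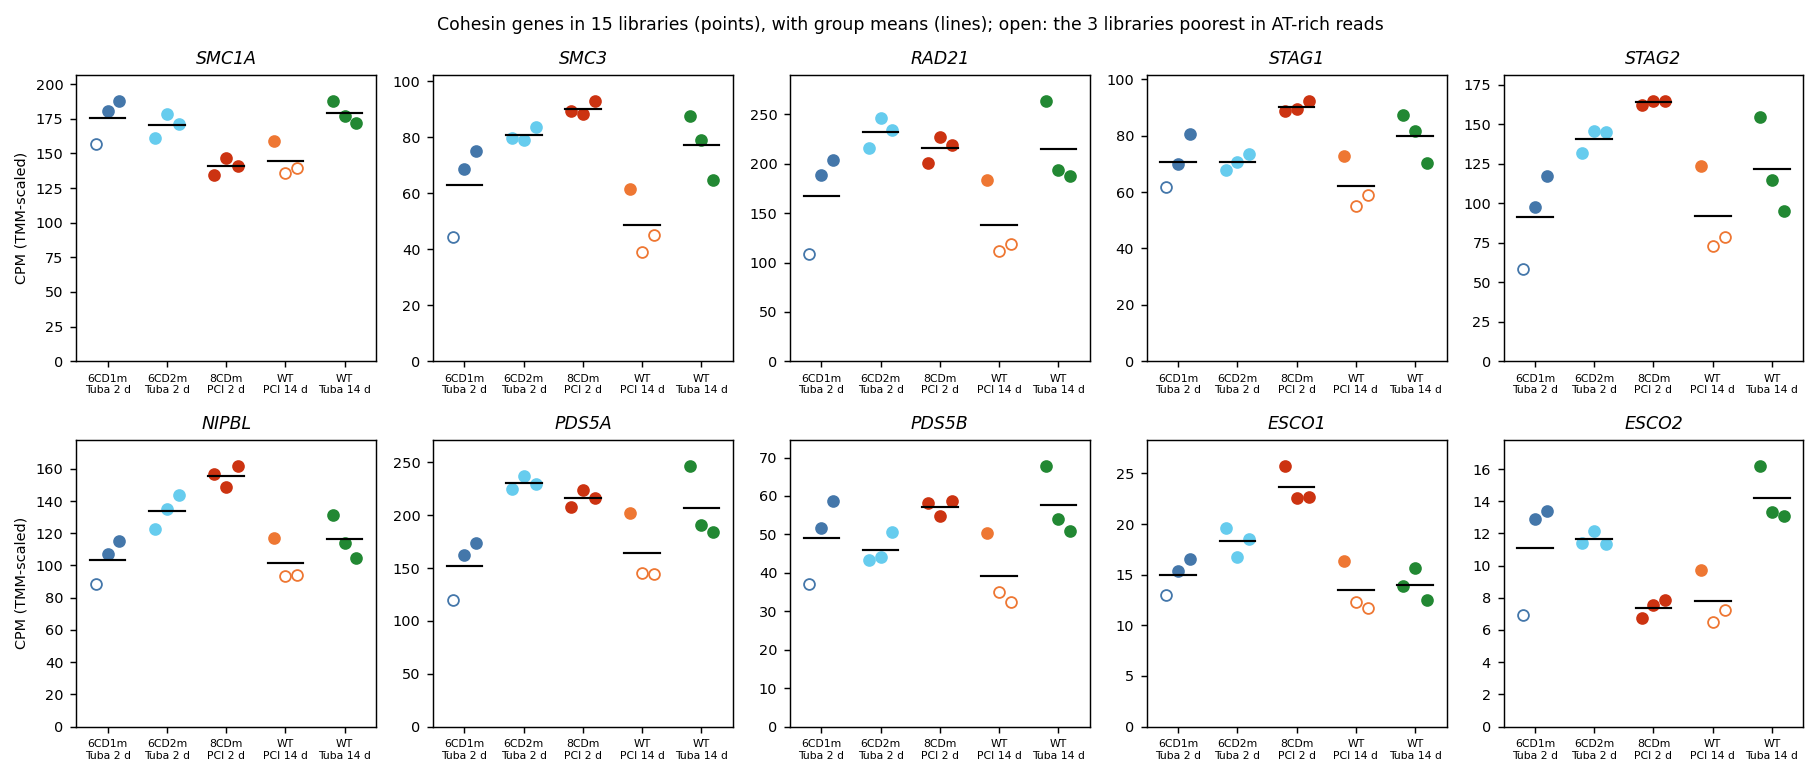
Each panel shows 1 gene, with CPM (TMM-scaled, from 0) on the vertical axis and the 5 groups on the horizontal axis. Points are libraries, short lines are group means (n = 3), and open points mark the 3 libraries poorest in AT-rich reads. ESCO1 lies at 22.6 to 25.7 CPM in 8CDm_PCI and at 11.7 to 19.7 CPM elsewhere, while ESCO2 lies at 6.72 to 7.84 CPM in 8CDm_PCI and at 13.1 to 16.2 CPM in WT_Tuba.

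The HDAC8-mutant line and wild-type cells on the same inhibitor were compared first. In 8CDm_PCI against WT_PCI, ESCO1 rose 1.76-fold, and it was the 1 cohesin gene of 10 called, where 11.0% of the 19535 tested genes were called (4.69% in the higher direction). Besides ESCO1, the levels of SMC3, RAD21, STAG1, STAG2, NIPBL, PDS5A and PDS5B were higher in every 8CDm_PCI library than in any WT_PCI library, at adjusted p of 0.00119 to 0.0546. Of all tested genes, 23.8% were likewise higher without overlap. SMC1A and ESCO2 overlapped between the groups in these values without GC offsets. The median log2 difference of the 10 genes was 0.58, against -0.04 over all tested genes. Over AT-rich genes the median was 0.41 and over GC-rich genes -0.36, and with GC offsets the median of the 10 fell to 0.25.

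ESCO1 (ENSG00000141446, GRCh38 chr18:21529281-21600884, minus strand) acetylates SMC3 throughout the cell cycle. Its level was 25.7, 22.6 and 22.7 CPM in 8CDm_PCI, 16.4, 12.3 and 11.7 CPM in WT_PCI, and 19.7, 16.7 and 18.5 CPM in 6CD2m_Tuba. In 6CD1m_Tuba it was 13.0, 15.4 and 16.6 CPM, and in WT_Tuba 13.9, 15.7 and 12.5 CPM. The 3 highest libraries were those of 8CDm_PCI, and 6CD2m_Tuba came next, above all other libraries. WT_Tuba, WT_PCI and 6CD1m_Tuba overlapped with each other. The log2 difference between 8CDm_PCI and WT_PCI was 0.81 (SE 0.14, edgeR adjusted p 0.000529), and the test for any difference among the 5 groups called ESCO1 alone of the 10 genes (adjusted p 0.000765), where 24.6% of all tested genes were called. With GC offsets the difference was 0.37 (SE 0.11) and was not called (adjusted p 0.0173). Leaving out the 3 libraries that stood apart gave 0.53 (adjusted p 0.0319), and leaving out single libraries of the comparison gave 0.72 to 0.99, called only without WT_PCI replicate 1. Over all alternatives tried the adjusted p ran from 7.31e-07 to 0.0319. The median of the 191 protein-coding genes tested on chromosome 18 was 0.12 in this comparison.

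The gene whose pattern over the 15 libraries was most like that of ESCO1 was GCC2, which encodes a golgin of the trans-Golgi network, with a root mean square difference of 0.084 log2 units between the centred profiles. BRWD1, a bromodomain gene, followed at 0.087 and ZNF717, a zinc finger gene, at 0.117, among 13924 genes compared. For scale, the profile of ESCO1 had an SD of 0.35 log2 units. The nearest cohesin gene was NIPBL, at rank 42 and 0.161 log2 units. All these profiles were taken without GC offsets, so they include the differences between libraries in the level of AT-rich genes. The part of those differences in the similarity was not tested.

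SMC3 (ENSG00000108055, GRCh38 chr10:110567691-110604636, plus strand) carries the lysines that ESCO1 and ESCO2 acetylate and HDAC8 deacetylates, and it was among the larger differences. The stretch of its coding sequence around both lysines, in exon 6, is shown because it is the site on which the enzymes of this comparison act. It spans codons 99 to 112 at GRCh38 chr10:110577859-110577900 on the plus strand, and the capitals mark the codons for K105 (AAA) and K106 (AAG).
SMC3 codons: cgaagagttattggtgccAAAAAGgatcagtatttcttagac
Acetylation at this site is not measured by RNA-seq. The level of SMC3 was 89.4, 88.4 and 93.2 CPM in 8CDm_PCI and 61.4, 39.2 and 45.2 CPM in WT_PCI. Elsewhere it was 79.6, 79.1 and 83.5 CPM in 6CD2m_Tuba, 44.5, 68.8 and 75.2 CPM in 6CD1m_Tuba, and 87.6, 79.2 and 64.6 CPM in WT_Tuba. All 8CDm_PCI libraries were above all others, and the 3 lowest were the libraries poor in AT-rich reads. The log2 difference between 8CDm_PCI and WT_PCI was 0.89 (SE 0.18, adjusted p 0.00146) and missed the threshold. With GC offsets it was smaller but more precise, at 0.54 (SE 0.10, 1.45-fold, adjusted p 0.000561), and passed, where 10.8% of genes were called in that fit. DESeq2 on the same counts also called it (0.91, adjusted p 1.64e-05), with a range of adjusted p from 9.19e-06 to 0.012 over all alternatives.

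The other ring subunits differed from each other. RAD21 (ENSG00000164754, GRCh38 chr8:116845935-116874866, minus strand), the subunit that separase cuts at anaphase, was at 201, 227 and 219 CPM in 8CDm_PCI and 184, 112 and 119 CPM in WT_PCI. Its log2 difference was 0.64 (SE 0.22, adjusted p 0.0308), or 0.38 (SE 0.14) with GC offsets. SMC1A (ENSG00000072501, GRCh38 chrX:53374149-53422728, minus strand), the partner of SMC3, was at 135, 147 and 141 CPM in 8CDm_PCI and 159, 136 and 139 CPM in WT_PCI. These libraries overlapped, and the log2 difference was -0.04 with a 95% interval of -0.23 to 0.16. SMC1A was also the member with the highest GC content, at 47.2%.

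STAG1 (ENSG00000118007, GRCh38 chr3:136336233-136752403, minus strand) and STAG2 (ENSG00000101972, GRCh38 chrX:123960212-124422664, plus strand) are alternative subunits of the ring. STAG1 was at 88.9, 89.4 and 92.5 CPM in 8CDm_PCI and 72.6, 55.0 and 58.9 CPM in WT_PCI, a log2 difference of 0.54 (SE 0.12, adjusted p 0.00285). STAG2 was at 162, 165 and 165 CPM in 8CDm_PCI and 124, 72.8 and 78.8 CPM in WT_PCI, a difference of 0.84 (SE 0.23, adjusted p 0.0115). Both were higher in all 8CDm_PCI libraries, and neither was called. With GC offsets the differences were 0.23 (SE 0.06) for STAG1 and 0.39 (SE 0.13) for STAG2. Genes on the opposite strand overlap 3 of the ring subunits in the annotation: PCCB overlaps STAG1, TENM1 overlaps STAG2 and UTP23 overlaps RAD21, with up to 1605, 785 and 588 counts in a library. These overlaps are of whole gene spans, introns included, and overlap of exons was not examined. No source used here says whether strand was used in counting. Whether reads from these partners were counted for the ring genes was therefore not tested. The estimated count of STAG2 was whole in every library, while that of STAG1 was not whole in 15 libraries and that of RAD21 in 12.

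NIPBL (ENSG00000164190, GRCh38 chr5:36876759-37066413, plus strand), the loader, was at 157, 149 and 162 CPM in 8CDm_PCI and 117, 93.7 and 94.3 CPM in WT_PCI. The difference was 0.61 (SE 0.12, adjusted p 0.00119), which missed the threshold, and 0.27 (SE 0.07, adjusted p 0.00465) with GC offsets. In the other groups NIPBL was at 123 to 144 CPM in 6CD2m_Tuba, 105 to 131 CPM in WT_Tuba and 88.3 to 115 CPM in 6CD1m_Tuba, so the 8CDm_PCI libraries were again the highest. PDS5A (ENSG00000121892, GRCh38 chr4:39822863-39977956, minus strand) was at 208 to 224 CPM in 8CDm_PCI and 145 to 202 CPM in WT_PCI, a difference of 0.40 (SE 0.15, adjusted p 0.0546). With GC offsets the PDS5A difference was 0.15 (SE 0.09, adjusted p 0.229). The offset values overlapped, at 189 to 210 CPM in 8CDm_PCI and 169 to 199 CPM in WT_PCI. PDS5B (ENSG00000083642, GRCh38 chr13:32586427-32778019, plus strand) was at 58.1, 54.8 and 58.6 CPM against 50.3, 35.0 and 32.5 CPM, a difference of 0.54 (SE 0.18, adjusted p 0.0266) that was 0.08 (SE 0.09) with GC offsets. Of the 8 genes that were higher, PDS5B thus retained the least of its difference once base composition was taken out.

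DESeq2, upper-quartile normalization and the fit without a filter on low counts each called 4 of the 10 genes in this comparison, where they called 19.7%, 12.5% and 8.50% of all genes they tested. The filter of at least 10 counts in every library called 3, against 14.6% of the genes it kept. ESCO1, SMC3 and NIPBL were among them each time.

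**Figure D3:**
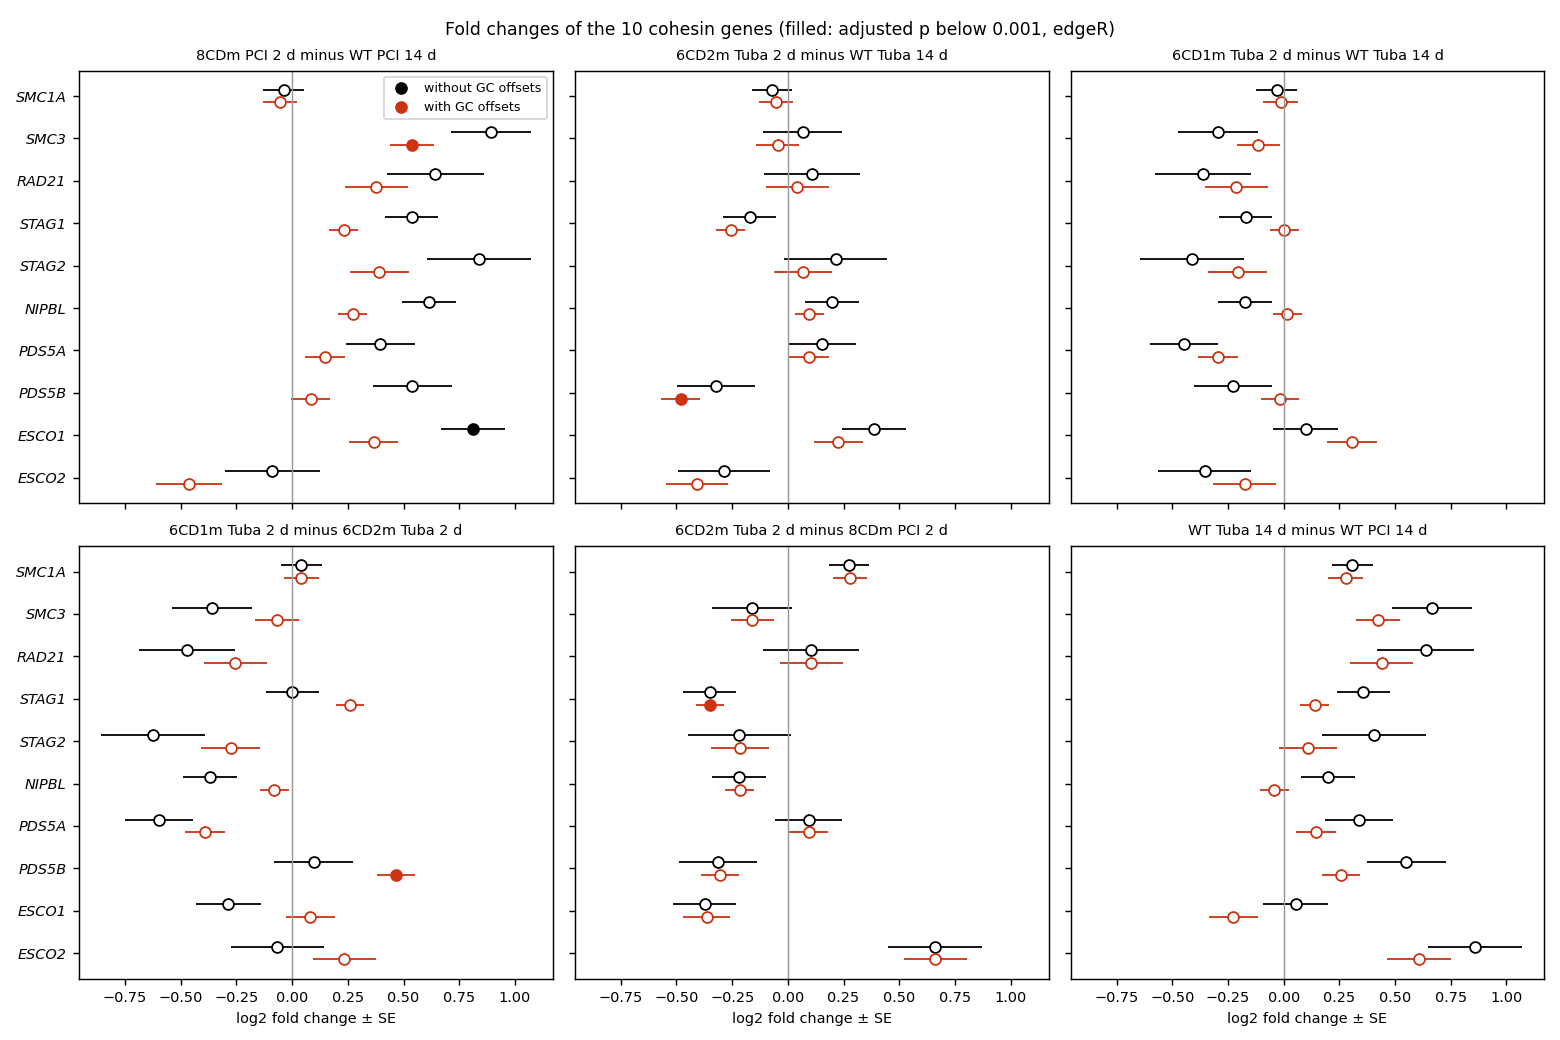
Each panel is 1 of the 6 comparisons and shows the log2 fold change of the 10 cohesin genes with its standard error, in black without and in red with GC offsets. Filled points have an adjusted p below 0.001 in edgeR. The single filled black point is ESCO1 in 8CDm_PCI against WT_PCI at 0.81, and the filled red points are SMC3 at 0.54 in that panel, PDS5B at -0.48 and 0.47, and STAG1 at -0.35.

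For SMC3, NIPBL and STAG1, whose levels were the nearest to the threshold after ESCO1, the 250 bases before the RefSeq start on GRCh38.p14 are printed to show what their promoters hold. Of the 10 members, 7 matched the RefSeq promoter table, with SMC1A, STAG2, PDS5A and PDS5B besides these. Capitals mark CCAAT and GGGCGG, searched on both strands as CCAAT or ATTGG and GGGCGG or CCGCCC. The windows are chr10:110567445-110567694 (plus strand) for SMC3, chr5:36876519-36876768 (plus strand) for NIPBL and chr3:136752379-136752628 (minus strand) for STAG1.
SMC3: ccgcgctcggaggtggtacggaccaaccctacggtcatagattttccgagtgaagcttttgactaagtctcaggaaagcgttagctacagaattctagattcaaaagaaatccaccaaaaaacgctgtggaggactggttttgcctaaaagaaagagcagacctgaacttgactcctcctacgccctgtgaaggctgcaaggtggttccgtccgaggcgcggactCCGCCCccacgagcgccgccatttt
NIPBL: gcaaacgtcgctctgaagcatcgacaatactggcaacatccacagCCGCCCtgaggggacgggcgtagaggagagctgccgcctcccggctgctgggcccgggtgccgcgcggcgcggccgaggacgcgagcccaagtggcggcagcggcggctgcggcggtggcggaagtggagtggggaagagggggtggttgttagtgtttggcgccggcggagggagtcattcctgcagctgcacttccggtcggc
STAG1: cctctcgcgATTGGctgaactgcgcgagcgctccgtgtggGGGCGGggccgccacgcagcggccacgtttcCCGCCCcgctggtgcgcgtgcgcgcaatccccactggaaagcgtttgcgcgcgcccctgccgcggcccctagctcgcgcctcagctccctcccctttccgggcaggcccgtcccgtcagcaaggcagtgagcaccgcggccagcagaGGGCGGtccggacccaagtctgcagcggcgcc
GGGCGG, the core of the GC box, was in 7 of the 7 windows, against 42.3% of 27305 windows of the same length over all genes. CCAAT was in 4 of the 7 (STAG1, STAG2, PDS5A and PDS5B), against 33.0% of all windows. TTCCGG, read also as CCGGAA, was in SMC1A, STAG1 and NIPBL, against 14.8%. Among the longer motifs, TTTGGCGC, or its reverse complement GCGCCAAA, was in NIPBL, against 0.553% of all windows, and TTTCCCGC, or GCGGGAAA, in STAG1, against 1.42%. TTTGAA, read also as TTCAAA, was in SMC3, against 13.6%. These are matches of letters, and no member was found with CACGTG or TTCGAA in its window. The SMC3 window held 52.8% GC, and the other 6 held 60.4% to 78.0%. The windows over all genes were not matched to these in GC content, so the shares do not show an excess particular to cohesin genes.

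The acetyltransferase paralogs had different patterns. ESCO2 (ENSG00000171320, GRCh38 chr8:27771949-27812640, plus strand) acetylates SMC3 during DNA replication and is transcribed mainly in dividing cells. It was at 6.72, 7.53 and 7.84 CPM in 8CDm_PCI and 9.71, 6.51 and 7.21 CPM in WT_PCI, with overlap and a log2 difference of -0.09 (95% interval -0.55 to 0.37). With GC offsets the difference was -0.46 (SE 0.15, edgeR adjusted p 0.0241) and was not called. The offset values did not overlap, at 5.82 to 7.04 CPM in 8CDm_PCI and 8.35 to 9.74 CPM in WT_PCI. Without offsets, ESCO2 in 6CD2m_Tuba was 11.4, 12.2 and 11.3 CPM, in 6CD1m_Tuba 6.90, 12.9 and 13.4 CPM, and in WT_Tuba 16.2, 13.4 and 13.1 CPM. Apart from 6CD1m_Tuba replicate 1, the Tubastatin A libraries were all above the PCI-34051 libraries. The span of ESCO2 overlaps CCDC25 and PBK, which lie on the opposite strand and held up to 1286 and 1065 counts in a library. The same limits on strand and exons hold for ESCO2.

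A ratio of paralogs within a library does not depend on how libraries are scaled. The ratio of ESCO1 to ESCO2 counts per kb was 5.78, 4.52 and 4.37 in 8CDm_PCI. It was 2.54, 2.84 and 2.45 in WT_PCI and 2.59, 2.07 and 2.46 in 6CD2m_Tuba. It was 2.83, 1.80 and 1.87 in 6CD1m_Tuba and 1.29, 1.77 and 1.44 in WT_Tuba. The 8CDm_PCI libraries lay above the other 12, and those of WT_Tuba were the lowest. On the log2 scale of counts, 8CDm_PCI exceeded the mean of the other 12 libraries by 1.21 (two-sided exact permutation test over 455 splits, p = 0.0044, which is the smallest p that it can give, and 0.013 after Benjamini-Hochberg adjustment over 3 ratios). With GC offsets the ratio of counts was 2.84 to 3.72 in 8CDm_PCI and at most 1.94 elsewhere. The test exchanges single libraries, although the 15 libraries are 5 groups of 3 replicates. Any group whose libraries all lay at 1 end would give the same p. The p thus describes the separation of these libraries and does not measure the variation between lines or treatments. The test also compares 1 line with a pool of 4 other groups and so does not tell line, inhibitor and time apart. ESCO1 lies on chromosome 18 and ESCO2 on chromosome 8. In 6CD2m_Tuba against 8CDm_PCI the median log2 difference of protein-coding genes was -0.73 on chromosome 18 and 0.16 on chromosome 8. In 8CDm_PCI against WT_PCI these medians were 0.12 and 0.11. The part of such chromosome-wide differences in the ratio was not tested.

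The ratios of STAG2 to STAG1 and of PDS5A to PDS5B in 8CDm_PCI differed from the other libraries by 0.26 (exact permutation p = 0.19) and -0.05 (exact permutation p = 0.80) log2 units. STAG2/STAG1 per kb was 1.71 to 1.77 in 8CDm_PCI, 1.86 to 1.97 in 6CD2m_Tuba, 1.27 to 1.63 in WT_PCI, 1.30 to 1.70 in WT_Tuba and 0.910 to 1.39 in 6CD1m_Tuba. PDS5A/PDS5B per kb was 4.90 to 5.82 in 6CD2m_Tuba and at most 4.81 in the other libraries, with 6CD1m_Tuba the lowest at 3.20 to 3.51. That last pattern was seen after the values were known and carries no test.

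**Figure D4:**
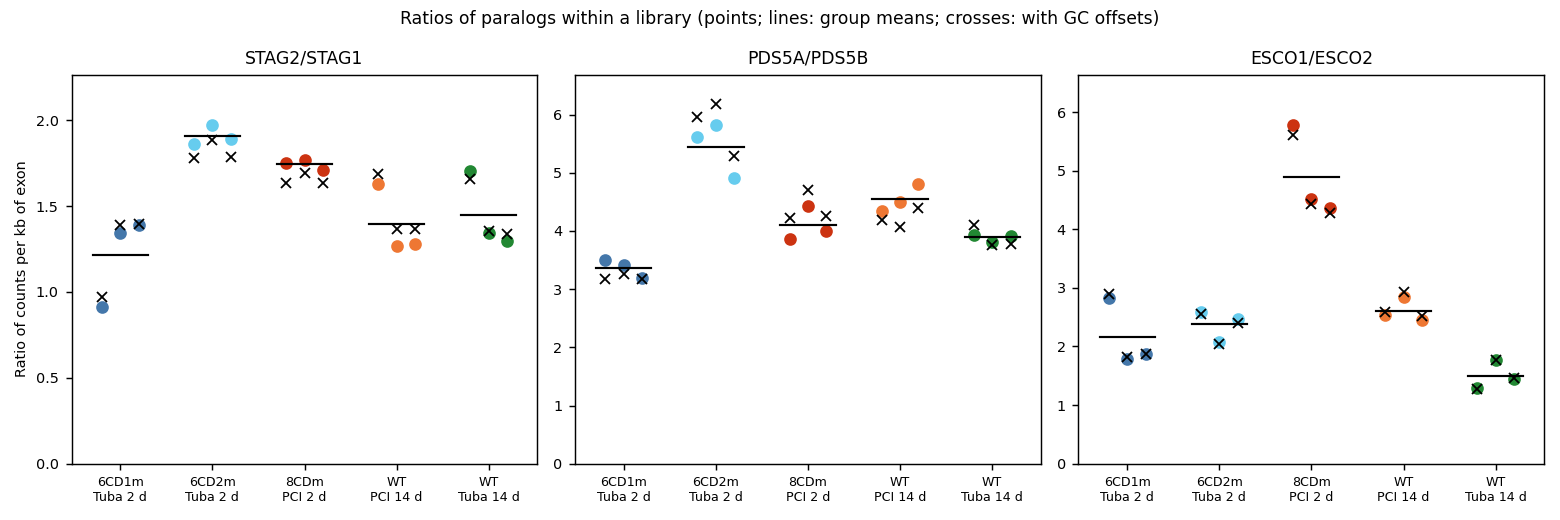
Each panel gives 1 ratio of paralogs, as counts per kb of exon from 0, for the 15 libraries by group. Points are libraries, lines are group means (n = 3) and crosses are the same ratio with GC offsets. ESCO1/ESCO2 lies at 4.37 to 5.78 in 8CDm_PCI and at no more than 2.84 elsewhere, and PDS5A/PDS5B lies highest in 6CD2m_Tuba, at 4.90 to 5.82.

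For HDAC6, the mutant line 6CD2m_Tuba was compared with WT_Tuba. None of the 10 cohesin genes was called by edgeR or by DESeq2 (1 at an unadjusted p under 0.05), where 11.8% of tested genes were called by edgeR and 42.3% had an unadjusted p under 0.05. The median log2 difference of the 10 was 0.09, with 6 above 0, and -0.01 over all tested genes. Genes that act beside cohesin in the cell cycle fell in the same comparison. Of 8 condensin genes, which compact chromosomes, 6 fell, with SMC4 at -0.70 (SE 0.11, adjusted p 0.000138), NCAPH at -0.91 (SE 0.14) and NCAPH2 at -0.87 (SE 0.12). Of 15 mitosis genes 10 fell, with a median of -1.01, among them BUB1B, a spindle checkpoint kinase, at -1.01 (SE 0.14), UBE2C, a ubiquitin-conjugating enzyme of the anaphase-promoting complex, at -1.21 (SE 0.15), and PRC1, a midzone protein, at -1.01 (SE 0.15). Of 15 S phase genes 7 fell, with UHRF1 at -0.91 (SE 0.10), FEN1 at -0.91 (SE 0.11) and RRM2 at -1.02 (SE 0.16). Among 17 tested regulators and partners of cohesin 6 fell: PLK1, a kinase that releases cohesin in prophase, at -1.22 (SE 0.09), ESPL1, the protease separase, at -1.27 (SE 0.15), BUB1, which marks centromeres for the cohesin protector, at -1.61 (SE 0.15), CDCA5, or sororin, at -0.93, PTTG1, or securin, at -1.51, and AURKB at -0.85. In bulk RNA, fewer cells in a cycle stage and less RNA per cell cannot be told apart. With GC offsets the counts were 7 of 8, 12 of 15, 5 of 15 and 6 of 17, where 8.85% of tested genes were called lower. In 8CDm_PCI against WT_PCI 11.0% of all tested genes were called and 6.27% were called lower. From these lists 1 of 8 condensin genes (NCAPH2), 4 of 15 S phase genes (CDC6, CDT1, FEN1 and UHRF1) and 2 of 17 regulators (CDCA5 and ESPL1) were called lower. Of the mitosis genes 0 of 15 were called by edgeR (3 at an unadjusted p under 0.05, beside 8955 of the 19535 tested genes). With GC offsets these counts were 2 of 8, 2 of 15, 1 of 17 and 0 of 15, where 5.68% of tested genes were called lower.

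PDS5B was the exception among the cohesin genes once GC offsets were used. It was at 43.3, 44.1 and 50.7 CPM in 6CD2m_Tuba and 67.8, 54.1 and 51.0 CPM in WT_Tuba, without overlap. The difference was -0.32 (SE 0.18, adjusted p 0.176) in the model without offsets and -0.48 (SE 0.09, adjusted p 0.000349) with them, where 15.2% of genes were called. The median of the 237 protein-coding genes tested on chromosome 13, where PDS5B lies, was -0.27 in this comparison without offsets. On chromosome 18, where ESCO1 lies, the median of 191 genes was -0.79. ESCO1 itself was at 16.7 to 19.7 CPM in 6CD2m_Tuba and 12.5 to 15.7 CPM in WT_Tuba.

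The other HDAC6 mutant, 6CD1m_Tuba, differed little from WT_Tuba at this threshold. None of the 10 genes was called by edgeR or DESeq2 (1 at an unadjusted p under 0.05), where 0.793% of tested genes were called and 32.0% had an unadjusted p under 0.05. The members' median was -0.26, and 6CD1m_Tuba includes 1 of the libraries poor in AT-rich reads. With GC offsets it was -0.07.

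The 2 HDAC6-mutant lines, on the same inhibitor for the same time, were set side by side to compare the catalytic domains that the mutations hit. None of the 10 genes was called by edgeR in 6CD1m_Tuba against 6CD2m_Tuba (4 at an unadjusted p under 0.05), where 13.2% of tested genes were called and 49.0% had an unadjusted p under 0.05. DESeq2 called PDS5A alone of the 10, and 19.5% of the genes it tested. PDS5A was at 120, 163 and 173 CPM in 6CD1m_Tuba and 224, 237 and 229 CPM in 6CD2m_Tuba, a log2 difference of -0.60 (SE 0.15, adjusted p 0.00635) without overlap. STAG2 differed by -0.63 (SE 0.23, adjusted p 0.0439) and NIPBL by -0.37 (SE 0.12, adjusted p 0.0245), both without overlap. With GC offsets the values were -0.39 for PDS5A, -0.28 for STAG2 and -0.08 for NIPBL. PDS5B, at 37.1, 51.6 and 58.8 CPM against 43.3, 44.1 and 50.7 CPM, went from 0.10 (SE 0.18) to 0.47 (SE 0.09, adjusted p 0.000505) and was called with GC offsets, where 16.0% of genes were called. The estimates for the PDS5 paralogs thus had opposite signs between these lines. Meanwhile 4 of 8 condensin, 7 of 15 mitosis, 8 of 15 S phase and 7 of 17 regulator genes were higher in 6CD1m_Tuba, for example PLK1 at 1.40 (SE 0.09) and ESPL1 at 1.78 (SE 0.16). With GC offsets the counts were 6 of 8, 13 of 15, 5 of 15 and 7 of 17, where 7.47% of tested genes were called higher.

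**Figure D5:**
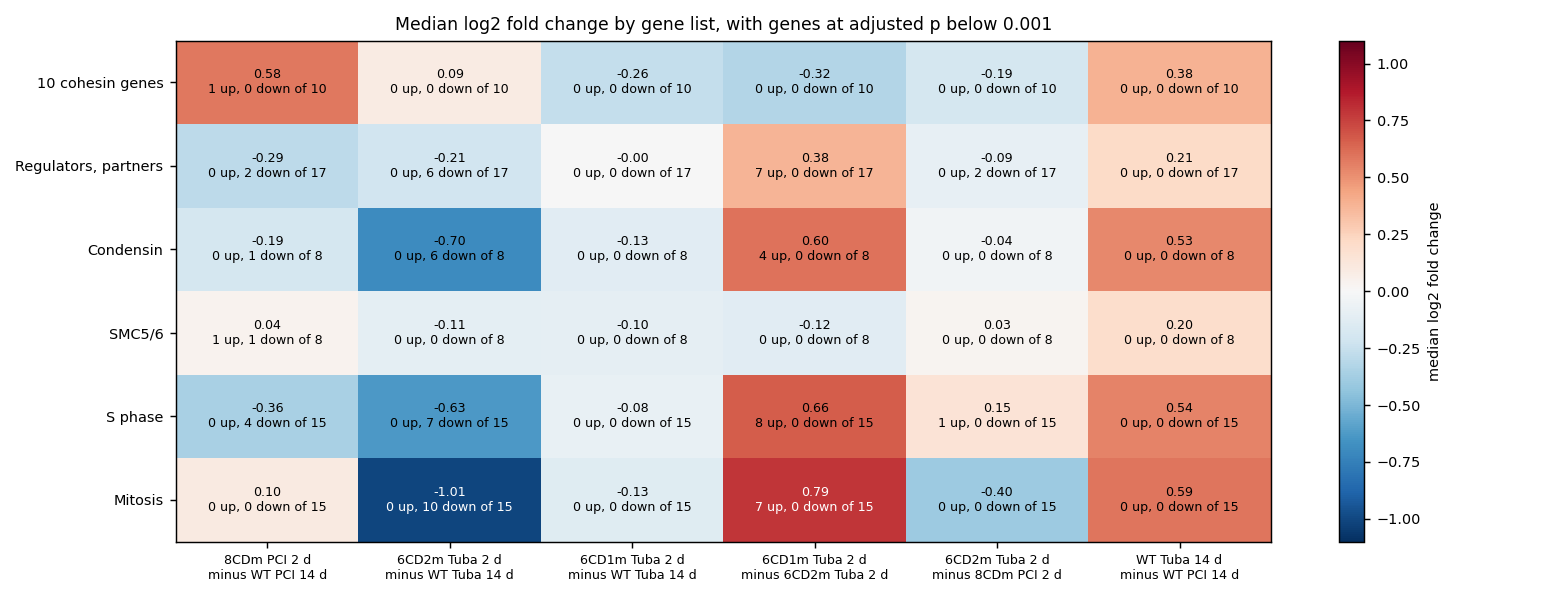
Rows are gene lists and columns are the 6 comparisons. Colour and the upper number in each cell give the median log2 fold change over the tested genes of a list, and the lower line counts those up or down at an adjusted p below 0.001. The cohesin genes have 1 call in all, in 8CDm_PCI against WT_PCI, while 6 of 8 condensin and 10 of 15 mitosis genes are down in 6CD2m_Tuba against WT_Tuba.

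The 2-day mutant groups were compared next. None of the 10 genes was called by edgeR or DESeq2 in 6CD2m_Tuba against 8CDm_PCI (4 at an unadjusted p under 0.05), where 9.96% of tested genes were called and 35.8% had an unadjusted p under 0.05. The groups did not overlap for 9 of the 10, 3 higher and 6 lower, nor for 51.6% of all tested genes. These 6 libraries did not include any that stood apart. ESCO2 was higher in 6CD2m_Tuba by 0.66 (SE 0.21, adjusted p 0.0302) and SMC1A by 0.27 (SE 0.09, adjusted p 0.0369), while STAG1 was lower by a log2 value of -0.35 (SE 0.12, adjusted p 0.0405). A fit of these 6 libraries alone called ESCO2 (adjusted p 0.000279), SMC1A (0.000474) and STAG1 (0.000345), where it called 23.2% of the genes it tested. With GC offsets STAG1 was at -0.35 (SE 0.06, adjusted p 0.000539) and was called, where 13.5% of genes were called. SMC1A was at 161, 178 and 172 CPM in 6CD2m_Tuba and, as above, 135 to 147 CPM in 8CDm_PCI.

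Between the inhibitors, in wild-type cells treated for 14 days, the 10 genes were all higher in WT_Tuba than in WT_PCI by point estimate, with a median of 0.38 against 0.01 over all tested genes. None was called by edgeR or DESeq2 (7 at an unadjusted p under 0.05), where 0.420% of tested genes were called and 30.0% had an unadjusted p under 0.05. ESCO2 had the largest difference, 0.86 (SE 0.21, 1.81-fold, adjusted p 0.0222), with no overlap. SMC3 differed by 0.67 (SE 0.18, adjusted p 0.0334) and SMC1A by 0.31 (SE 0.09, adjusted p 0.0475). Of the 3 WT_PCI libraries 2 were poor in AT-rich reads. With GC offsets 8 of the 10 genes were above 0 and their median was 0.20. In that fit ESCO2 was at 0.61 (SE 0.14, adjusted p 0.0141) and SMC3 at 0.42 (SE 0.10, adjusted p 0.013). The condensin, S phase and mitosis lists had medians of 0.53, 0.54 and 0.59 in the same direction, also with no gene called by edgeR (7 of 8, 13 of 15 and 14 of 15 at an unadjusted p under 0.05, beside the 30.0% of all tested genes).

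The last test asked whether the step from wild-type to mutant cells differed between the HDAC8 arm (8CDm_PCI minus WT_PCI) and the HDAC6 arm (6CD2m_Tuba minus WT_Tuba). None of the 10 genes was called by edgeR or DESeq2 (4 at an unadjusted p under 0.05), where 5.16% of tested genes were called and 32.2% had an unadjusted p under 0.05. STAG1 had the smallest p, with a difference of 0.71 (SE 0.17, adjusted p 0.00783), followed by PDS5B at 0.86 (SE 0.25, adjusted p 0.0236) and SMC3 at 0.83 (SE 0.25, adjusted p 0.0325). With GC offsets these were 0.49 (SE 0.09, adjusted p 0.00101), 0.56 (SE 0.12, adjusted p 0.00295) and 0.58 (SE 0.14, adjusted p 0.00564). The difference between the arms for ESCO1 was 0.43 (SE 0.20, adjusted p 0.161), so the call for ESCO1 in the HDAC8 arm does not show that the arms differ. The median of this difference over the 191 protein-coding genes tested on chromosome 18, where ESCO1 lies, was 0.95. The part of that chromosome-wide difference in the ESCO1 value was not tested.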

How the data were processed

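RNA from 15 HT1080 cultures was rRNA-depleted and sequenced, and the authors deposited 1 table of estimated (expected) counts for 60675 genes. Per the submitters' processing notes, Trimmomatic 0.39, Bowtie2 2.4.5, RSEM 1.3.3, DESeq2 1.38.2 and GRCh38 were used. The annotation and strand setting are not given in the sources used here. Of the nonzero deposited estimated counts, 21.84% were not whole, and all were rounded here. GENCODE 29 supplied GC content, exon lengths and GRCh38 coordinates for 57055 of the genes.

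edgeR 4.0.16 (R 4.3.3) was fitted to all 15 libraries with TMM scaling. Its expression filter kept 19535 genes, and quasi-likelihood tests were adjusted by Benjamini-Hochberg over all of them at 0.001. GC offsets were lowess curves (span 0.3) of log2 counts against GC content per library, for 19381 genes. Alternatives were DESeq2 1.42.0, upper-quartile scaling, other filters, 0.05 as threshold, fewer libraries, single libraries left out and a replicate block. The steps were tested on simulated data. Paralog ratios were tested by exact permutation (scipy 1.17.1).

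The members and gene lists were chosen with earlier results of these data known. All members were named, with HDAC6 and HDAC8. From each list at most 3 genes were named as examples, those called in the most of 6 pairwise comparisons, with ties broken by the p of the 5-group test. CDCA5, PTTG1, AURKB, CDC6 and CDT1 were named after their values were seen, to complete counts. For a member called in the 5-group test, the 3 most similar profiles were named.

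Replicate numbers paired only WT_Tuba with WT_PCI, where deviations from group means correlated at 0.505, 0.235 and 0.169 (Pearson r across genes). The main model did not use this pairing. Libraries within a group differed by more than counting noise.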

Additional observations from a re-analysis of the deposited data

Results flagged for a closer look

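No cohesin gene met a rule for a closer look. The list genes named beside them were picked for calls in pairwise comparisons of these same data, including both arms below. Their interaction terms are thus descriptive and no independent support. The edgeR interaction term compares the step from wild-type to mutant cells between the HDAC8 arm (8CDm_PCI minus WT_PCI) and the HDAC6 arm (6CD2m_Tuba minus WT_Tuba). It called 4 of the named genes, where 5.16% of all tested genes were called. These were BUB1 (log2 difference of differences 1.68, SE 0.21, adjusted p 4.41e-05), BUB1B (1.26, SE 0.19, adjusted p 0.000285), SMC4 (0.97, SE 0.15, adjusted p 0.000306) and PLK1 (0.78, SE 0.13, adjusted p 0.000435). BUB1, the checkpoint kinase, averaged 34.9 ± 1.84 CPM in 6CD2m_Tuba and 106.3 ± 11.5 in WT_Tuba, but 65.6 ± 2.80 in 8CDm_PCI and 62.4 ± 11.1 in WT_PCI (SD, n = 3). SMC4, the condensin ATPase, averaged 207.6 ± 4.21 and 336.5 ± 44.6 CPM in the HDAC6 arm and 284.6 ± 1.64 and 234.9 ± 31.4 in the HDAC8 arm. Groups of 3 libraries were too small for a test of single outlying libraries.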

How the results depend on the processing

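Of 426 values of 24 member results under the alternatives, 371 kept their direction and side of the threshold, 42 passed it only in the alternative, 10 no longer passed it and 3 changed sign. The sign changes came from single libraries left out: PDS5B in 6CD1m_Tuba against 6CD2m_Tuba ranged from -0.109 (without 6CD1m_Tuba replicate 3) to 0.264, and in 8CDm_PCI against WT_PCI SMC1A ranged from -0.082 to 0.038 and ESCO2 from -0.205 to 0.106, both highest without WT_PCI replicate 1. The 10 lost calls were all of ESCO1 in 8CDm_PCI against WT_PCI, among its 17 alternatives. It was the only 1 of the 24 results called in the main fit. Most of the 371 values are thus results called neither in the main fit nor in the alternative. 8CDm_PCI against WT_PCI and the 5-group test each had 1 member called in the main fit. For the alternatives, the shares of all tested genes called under the same setting stand in brackets. The numbers were 7 and 9 at a threshold of 0.05 (36.1% and 61.9%) and 4 and 3 with upper-quartile scaling (12.5% and 26.6%). They were 4 and 7 without a filter (8.50% and 20.6%) and 3 and 3 with at least 10 counts in every library (14.6% and 30.1%). DESeq2 called 4 and 6 (19.7% and 35.0%). Leaving out the 3 libraries poorest in AT-rich reads, chosen after seeing the data, gave 0 and 2 (5.73% and 26.4%). Fitting only the libraries compared called 0 in the first, and GC offsets called 2 in the second. Leaving out single libraries gave 0 to 4 in the first (4 without WT_PCI replicate 1, at 12.8% of tested genes). In the second it gave 0 to 3, with 3 without 6CD1m_Tuba replicate 1 (26.6%) or WT_PCI replicate 1 (30.0%). Elsewhere, where no member was called, GC offsets called 1 in 6CD2m_Tuba against WT_Tuba (15.2%), 1 in 6CD1m_Tuba against 6CD2m_Tuba (16.0%) and 1 in 6CD2m_Tuba against 8CDm_PCI (13.5%). In 6CD1m_Tuba against 6CD2m_Tuba DESeq2 (19.5%) and the fit without a filter (10.0%) each called 1. In 6CD2m_Tuba against 8CDm_PCI the fit of those libraries alone called 3 (23.2%) and the fit without the 3 libraries called 1 (13.6%). A threshold of 0.05 called 3 in each of these last 2 comparisons, 3 in WT_Tuba against WT_PCI and 3 in the difference between arms, where it called 40.3%, 26.5%, 9.48% and 19.3% of all tested genes. With the replicate block 0 members were called in 8CDm_PCI against WT_PCI and 0 in the 5-group test, and 0 in the former with GC offsets and the block, but same-numbered libraries there did not deviate together (r -0.0967 to -0.0479). In the WT_Tuba against WT_PCI comparison the block changed no member call. The block was 1 common replicate effect over all 15 libraries, and a paired fit of these groups alone was not run. The log2 differences in paralog ratios ranged over 8CDm_PCI libraries left out from 1.08 to 1.28 for ESCO1/ESCO2, 0.25 to 0.27 for STAG2/STAG1 and -0.11 to -0.01 for PDS5A/PDS5B, which was 0.073 with GC offsets. The causes were not tested. ESCO2, at 82 to 293 counts in a library, is the member most limited by depth.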
